A study of Equus caballus with 4 samples.

Results

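The peroxidases, catalase and superoxide dismutases of differentiating equine satellite cells were examined by microarray after incubation with gamma-oryzanol (GO), a mixture of ferulic acid esters from rice bran. The set held 10 genes chosen by symbol, namely the superoxide dismutases *SOD1*, *SOD2* and *SOD3*, the glutathione peroxidases *GPX1*, *GPX3*, *GPX4*, *GPX7* and *GPX8*, catalase (*CAT*) and peroxiredoxin 1 (*PRDX1*). Every non-control probe that carried one of these symbols in the array files was taken, whatever its signal. Of the 43603 probes, 23 were found, and they belonged to 8 genes. *GPX4* and *SOD3* are not analysed here, since no probe was matched to them.

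Superoxide dismutases turn superoxide into hydrogen peroxide and oxygen. SOD1 is the copper-zinc enzyme of the cytosol, SOD2 the manganese enzyme of the mitochondrial matrix and SOD3 the secreted enzyme. Hydrogen peroxide is then removed by catalase in peroxisomes, by peroxiredoxins, whose cysteine is re-reduced by thioredoxin, and by glutathione peroxidases, of which GPX1 (cytosol and mitochondria), GPX3 (secreted) and GPX4 (lipid hydroperoxides in membranes) use selenocysteine, whereas GPX7 and GPX8 are cysteine enzymes of the endoplasmic reticulum. Contracting muscle is a known source of superoxide and hydrogen peroxide, and these enzymes are the main ones that remove them there.

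Satellite cells, the muscle stem cells that lie along the fibres, had been isolated from *semitendinosus* muscle of colts, and per the methods the line that scored best for viability and fusion was taken further. On day 3 of differentiation, GO-treated cells had received 125 nM GO in dimethyl sulfoxide (DMSO) for 24 h, whereas control cells had received the DMSO vehicle alone at 0.04 µl/ml, so DMSO was common to both groups. On each of the 4 two-color arrays the GO-treated cells were labeled with Cy5 and the control cells with Cy3, without a dye swap, so dye and GO effects cannot be told apart. How the 4 arrays relate to that line, as separate cultures or separate horses, is not given in the sources used here, and p-values measure only the spread between these samples, which may be technical.

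All ratios below are on the log2 scale, GO-treated over control cells, and are positive where the GO channel was brighter. They are given for arrays 1 to 4 in this order and then as mean ± SD over the 4 arrays. A probe was tested where it was well above background in one channel on all 4 arrays, and a change was called at a limma Benjamini-Hochberg adjusted p of at most 0.05 together with a fold change of at least 1.3 (0.38 on the log2 scale). Of 26832 probes tested, 894 were higher and 1505 lower in GO-treated cells, and between 57.4% and 68.9% of the spots of a channel were well above background. No spot was saturated. All 10 myogenic markers with a probe were well above background in control cells on the 4 arrays, among them the muscle regulatory factors *MYF5*, *MYOD1* and *MYOG* and the embryonic myosin *MYH3*. Of these, 8 were lower in GO-treated cells (*MYF5* -0.93, limma adjusted p = 0.00102; *MYH8* -1.08, limma adjusted p = 0.00824), and none was higher. Their summed signal was 182495 to 246636 in the control channels and 106706 to 148675 in the GO channels. All 6 markers of fibroblasts and fibro-adipogenic cells with a probe were also above background, with *PDGFRA* higher (0.87, limma adjusted p = 0.0199), and their summed signal was 163914 to 230585 in control and 171488 to 217595 in GO-treated cells. None of the 4 adipocyte markers and none of the 5 endothelial markers with a probe was above background on all control arrays, against 2 of 6 leukocyte markers (*CD14* and *CD68*) and 1 of 2 erythroid markers (*ALAS2*), none of which was called. In such bulk RNA, fewer cells of a type and less RNA per cell cannot be told apart. The part of the muscle marker shift in the values below was not tested.

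The probes are 60 bases long, and each set of values refers to 1 short stretch of a transcript. The following probes are shown because the results turn on them, written 5′ to 3′ as in the array files, with positions on EquCab1, the build of those files. The *GPX1* probe carried the increase described below and lies on the plus strand of chr16:37794608-37794667. The *GPX7* probe represents a gene with a smaller positive ratio (minus strand, chr2:5118617-5118676).
GPX1: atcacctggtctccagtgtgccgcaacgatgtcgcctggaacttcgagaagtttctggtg
GPX7: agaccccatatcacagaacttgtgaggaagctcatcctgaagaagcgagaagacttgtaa

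*SOD2* was measured by 1 separate probe (plus strand, chr31:8525303-8525362) and by 9 probes tiled in steps of 20 bases. The first tiled position, chr31:8533066-8533125, carries a pair of probes that differ by the substitution G57A, where positions are counted from 1 at the 5′ end of the probe and the base of the first probe comes first. The next position, chr31:8533086-8533145, carries a pair that differs by G37A, which is the same base of the transcript. These pairs are shown because they read one target with a single mismatch, and the capital marks the base that differs.
SOD2 separate probe: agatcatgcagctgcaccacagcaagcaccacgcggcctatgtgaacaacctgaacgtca
SOD2 first position, with G: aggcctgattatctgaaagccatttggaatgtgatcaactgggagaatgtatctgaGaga
SOD2 first position, with A: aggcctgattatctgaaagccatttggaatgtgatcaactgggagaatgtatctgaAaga
SOD2 next position, with G: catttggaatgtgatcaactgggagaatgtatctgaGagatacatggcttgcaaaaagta
SOD2 next position, with A: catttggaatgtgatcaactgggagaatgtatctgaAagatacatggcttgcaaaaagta

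*GPX3* had 6 probes, of which 5 overlap so far that they share 55 bases, and the outermost 2 of these are shown with the shared bases in capitals. They are shown because the same target was read 5 times near the detection limit.
GPX3 overlapping probe 1: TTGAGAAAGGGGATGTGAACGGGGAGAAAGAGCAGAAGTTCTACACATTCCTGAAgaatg
GPX3 overlapping probe 5: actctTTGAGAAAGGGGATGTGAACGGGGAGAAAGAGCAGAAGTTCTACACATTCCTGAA

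Of the 8 genes, each represented by its brightest probe, *GPX1* was higher and *GPX3* lower in GO-treated cells, and the other 6 were not called. Among all 9501 named genes tested in the same way 8.66% were called, 3.29% as higher and 5.37% as lower. Of the 23 probes, 18 were tested, all of them well above background in both channels on the 4 arrays, and 2 were past both thresholds, against 8.94% of all probes (3.33% higher, 5.61% lower). A further 4 of the 18 passed the adjusted p but not the fold change (6 in all, 5 of them higher, against 18.1% of all probes and 8.29% that were higher). They were the other *GPX1* probe and 3 overlapping probes of *SOD2*, so they do not stand for separate genes. The ratio was positive for 15 of the 18 tested probes and for 5 of the 8 genes, and the median over the 8 genes was 0.05, against 0.00 over all genes tested. With 8 genes, 1 gene is a large share of the set, and no test of the set was made.

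**Figure D1:**
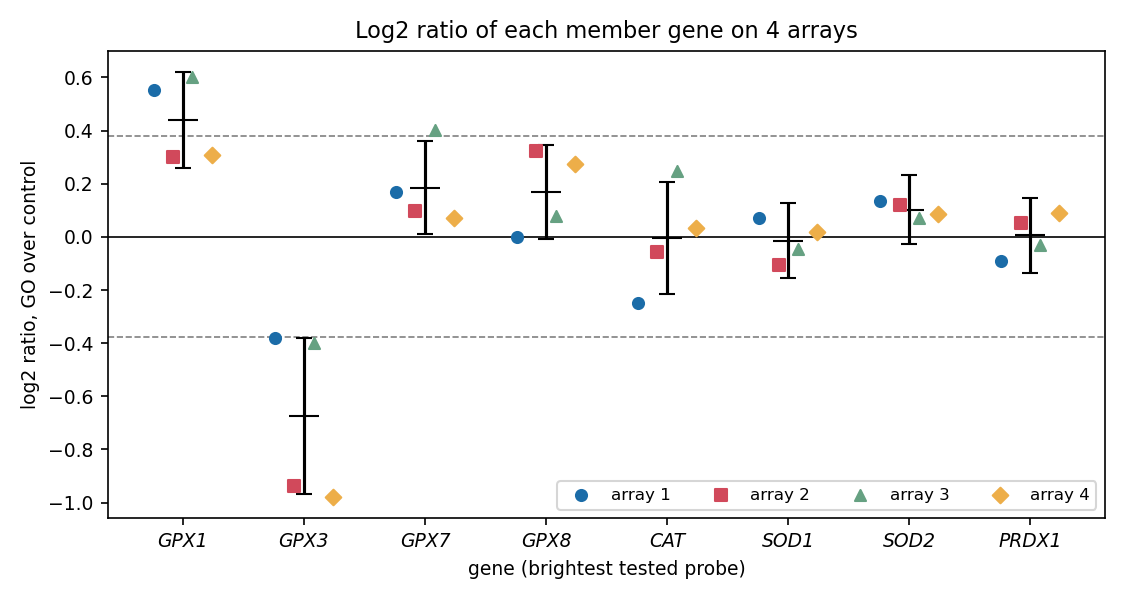
Log2 ratio of GO over control (vertical axis) for the brightest tested probe of each of the 8 genes, with 1 symbol per array, the mean as a horizontal bar and its 95% limma interval as error bars. Dashed lines mark the fold change of 1.3. *GPX1* is above and *GPX3* below 0 on all 4 arrays, whereas the arrays of *CAT*, *SOD1* and *PRDX1* lie on both sides of 0.

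*SOD1*, the cytosolic superoxide dismutase, gave control signals of 21150, 21046, 23093 and 19084 on arrays 1 to 4, and GO signals of 22207, 19584, 22353 and 19348. The GO channel was brighter on arrays 1 and 4 and dimmer on arrays 2 and 3, and the groups overlapped. The log2 ratio was -0.02 ± 0.08, with a 95% interval from -0.16 to 0.13 (limma adjusted p = 0.880). A change of either sign larger than 0.16 thus lay outside the interval under this normalization. With ratios centred on the median but without the lowess correction, the log2 ratio was 0.26 (limma adjusted p = 0.0419), still below the fold change threshold.

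*SOD2*, the mitochondrial enzyme, was slightly brighter in the GO channel at every one of its 10 probes and on every array. The brightest probe, the first of the tile, gave control signals of 1425, 1143, 1403 and 1301 and GO signals of 1566, 1241, 1474 and 1380. The 2 groups overlapped, since arrays differed more from each other than the channels within an array. The log2 ratios were 0.14, 0.12, 0.07 and 0.08, with a mean of 0.10 ± 0.03 and a 95% interval from -0.03 to 0.23 (limma adjusted p = 0.220). The separate probe, with control signals of 287, 348, 298 and 324 and GO signals of 334, 374, 321 and 330, had a ratio of 0.11 ± 0.08 (limma adjusted p = 0.223). Neither probe was called, and their means differed by less than the SD of either.

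Along the tile the *SOD2* ratio became larger towards the 3′ end. Probes that start at 8533066 gave means of 0.10 and 0.08, those at 8533086 gave 0.13 and 0.14, and those at 8533106 gave 0.17 and 0.18. At 8533126, 2 probes of identical sequence gave 0.27 (limma adjusted p = 0.0289) and 0.22 (limma adjusted p = 0.0357). The last probe, at 8533146, had ratios of 0.28, 0.28, 0.31 and 0.31, with a mean of 0.29 ± 0.02 and a fold change of 1.23 (limma adjusted p = 0.0162). These 3 probes passed the adjusted p but none reached a fold change of 1.3. The last probe exceeded the mean of the first pair by 0.15, 0.18, 0.26 and 0.22 on the 4 arrays (mean 0.20 ± 0.05). The order was noticed after the values were seen and is given without a test, and neighbouring probes share sequence. It was the same with normexp and loess (from 0.07 to 0.28) and with median centring without lowess (from 0.09 to 0.30). The single-base pairs shown above did not separate in this respect. The mean of the probe with A minus that of the probe with G was -0.02 at the first position and 0.0048 at the next, both smaller in size than the step between positions. The probes that start at 8533106 also differ at this base of the transcript (G17A), and there the difference was 0.018. The 2 probes of identical sequence at 8533126 differed by -0.043 (second minus first), more in size than any of these pairs. A single step along the tile was thus not clear of the difference between like probes.

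**Figure D2:**
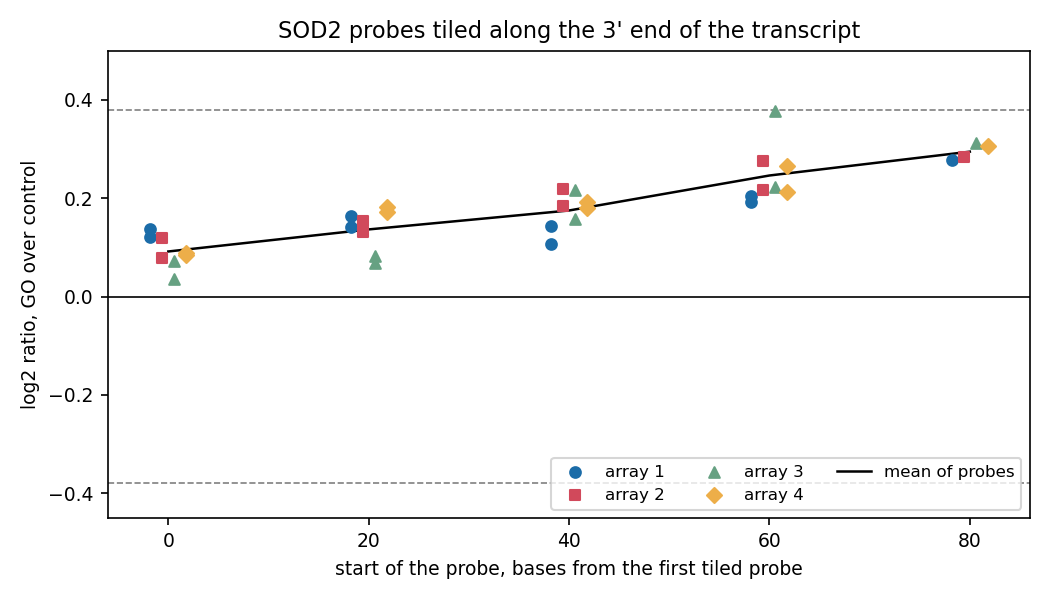
Log2 ratio of GO over control (vertical axis) for the 9 tiled *SOD2* probes against the start of the probe in bases from the first one (horizontal axis). Symbols are arrays 1 to 4, the line joins the means of the probes at each start, and dashed lines mark the fold change of 1.3. All points lie above 0, and the line runs from 0.09 at 0 bases to 0.29 at 80 bases.

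Further probes are described in the array files as the 3′ sequence of the same manganese superoxide dismutase without carrying its symbol. The 2 of them in plus orientation, at chr31:8535180-8535239 and chr31:8535200-8535259, had mean log2 ratios of -0.12 ± 0.18 (limma adjusted p = 0.342) and -0.15 ± 0.21 (limma adjusted p = 0.270). On array 1 they read -0.36 and -0.45, and on array 4 0.04 and 0.01. The tiled probes and these more distant ones thus had means of opposite sign, and the difference was not tested. Another 5 such probes, in minus orientation, were not well above background in either channel on any array.

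*GPX1*, the most widespread glutathione peroxidase, rose in GO-treated cells. Its brighter probe gave control signals of 9931, 12764, 10663 and 9688 and GO signals of 14564, 15738, 16163 and 11997. The GO signal was the higher one within each array, and only the GO signal of array 4 lay below a control signal, that of array 2. The log2 ratios were 0.55, 0.30, 0.60 and 0.31, with a mean of 0.44 ± 0.16, which is a fold change of 1.36 with a 95% interval of the log2 ratio from 0.26 to 0.62 (limma adjusted p = 0.0138).

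The second *GPX1* probe (plus strand, chr16:37794826-37794885) gave control signals of 3068, 3511, 2947 and 2797 and GO signals of 4112, 4055, 3898 and 3371. Its ratios of 0.42, 0.21, 0.40 and 0.27 averaged 0.33 ± 0.10, a fold change of 1.25, which passed the adjusted p (limma, 0.0200) but not the fold change threshold. Both probes had their higher ratios on arrays 1 and 3. The call of the brighter probe was lost without array 3 (log2 ratio 0.39, limma adjusted p = 0.0563), and was kept without any one of the other arrays. Its ratio was 0.39 with normexp and loess and 0.60 with median centring without lowess, past both thresholds each time.

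*GPX3*, the secreted glutathione peroxidase, was the only member called as lower, and its signals were close to background. The tested probe (minus strand, chr14:26319014-26319073) gave control signals of 56.1, 109, 49.1 and 59.7 and GO signals of 43.1, 57.1, 37.2 and 30.3. On average the raw spot signal exceeded the local background 3.91-fold for control RNA and 2.90-fold for GO RNA. The GO channel was dimmer within each array, while the ranges of the groups overlapped.

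The log2 ratios of this *GPX3* probe were -0.38, -0.94, -0.40 and -0.98, with a mean of -0.67 ± 0.33, so the level was 1.60-fold lower, with a 95% interval of the log2 ratio from -0.97 to -0.38 (limma adjusted p = 0.0164). The fall was larger on arrays 2 and 4 than on arrays 1 and 3. The call was lost without array 2 (log2 ratio -0.59, limma adjusted p = 0.0687). With normexp and loess the log2 ratio was -0.32 (limma adjusted p = 0.0729), so both the size and the call depended on this choice. The 5 overlapping probes shown above were not tested, since each was well above background on only 2 control arrays and on 1 or 2 GO arrays. Their mean ratios lay between -0.52 and -0.21, but single arrays read from -1.33 to 0.39, and array 1 was positive for all 5.

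*GPX7* and *GPX8*, the cysteine peroxidases of the endoplasmic reticulum, had positive means that were not called. The *GPX7* probe gave control signals of 1098, 1153, 847 and 891 and GO signals of 1233, 1235, 1118 and 937. Its ratios were 0.17, 0.10, 0.40 and 0.07, all above 0, with a mean of 0.18 ± 0.15 and a 95% interval from 0.01 to 0.36 (limma adjusted p = 0.12). The largest ratio was again that of array 3. The *GPX8* probe (minus strand, chr21:12950186-12950245) gave control signals of 12188, 7990, 13505 and 10459 and GO signals of 12180, 9989, 14273 and 12643. Here arrays 2 and 4 were the higher ones, with 0.32 and 0.27, whereas arrays 1 and 3 read -0.00 and 0.08. The mean was 0.17 ± 0.15, with a 95% interval from -0.01 to 0.35 (limma adjusted p = 0.157). Both intervals ended below the 0.38 of the fold change threshold.

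*CAT*, the peroxisomal enzyme, varied around 0. Its probe, placed on unassigned sequence (plus strand, chrUn:251963968-251964027), gave control signals of 2656, 1680, 1945 and 1769 and GO signals of 2237, 1616, 2312 and 1812. The ratios were -0.25, -0.06, 0.25 and 0.03, so that arrays 1 and 3 differed in sign. The mean was -0.00 ± 0.21, with a 95% interval from -0.21 to 0.20 (limma adjusted p = 0.975), and its sign depended on the array left out (-0.09 to 0.08).

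*PRDX1*, the cytosolic thioredoxin-dependent peroxidase, was equally close to 0. The probe (plus strand, chr2:11290008-11290067) gave control signals of 10566, 7732, 9716 and 7213 and GO signals of 9930, 8019, 9519 and 7667. The ratios of -0.09, 0.05, -0.03 and 0.09 averaged 0.01 ± 0.08, with a 95% interval from -0.14 to 0.15 (limma adjusted p = 0.960). The GO channel was brighter on arrays 2 and 4 and dimmer on arrays 1 and 3.

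**Figure D3:**
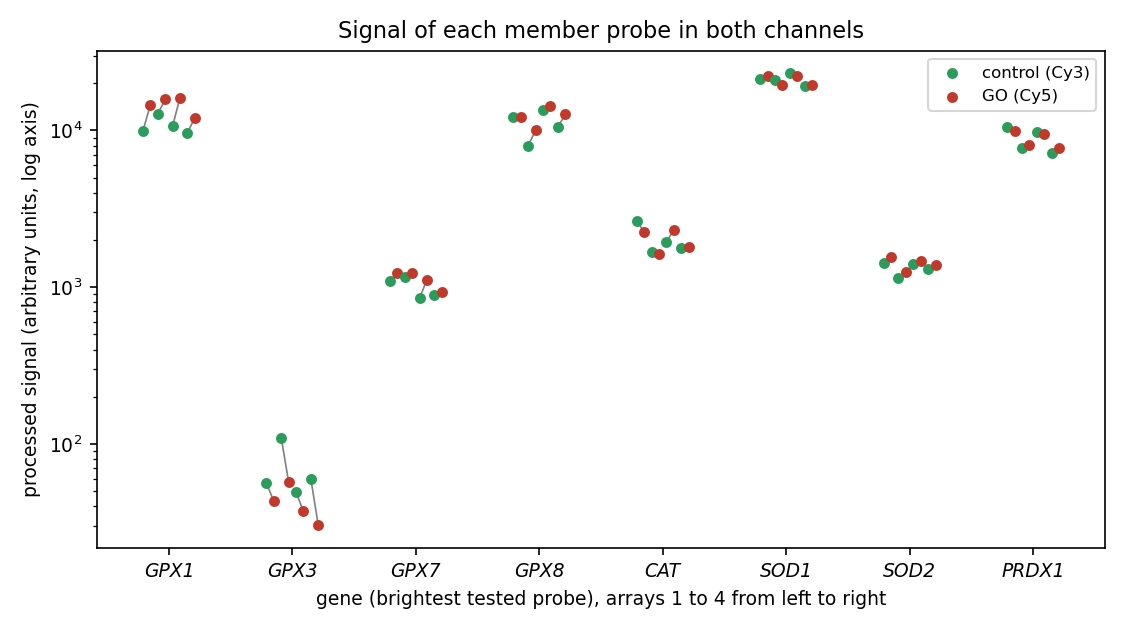
Processed signal (vertical axis, log scale, arbitrary units) of the brightest tested probe of each gene in the control (Cy3, green) and GO (Cy5, red) channels, with a line joining the channels of an array and arrays 1 to 4 from left to right. Heights of different probes are not comparable with each other. All 4 lines rise for *GPX1* (from 9931 to 14564 on array 1) and all 4 fall for *GPX3* (from 56.1 to 43.1 on array 1).

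**Figure D4:**
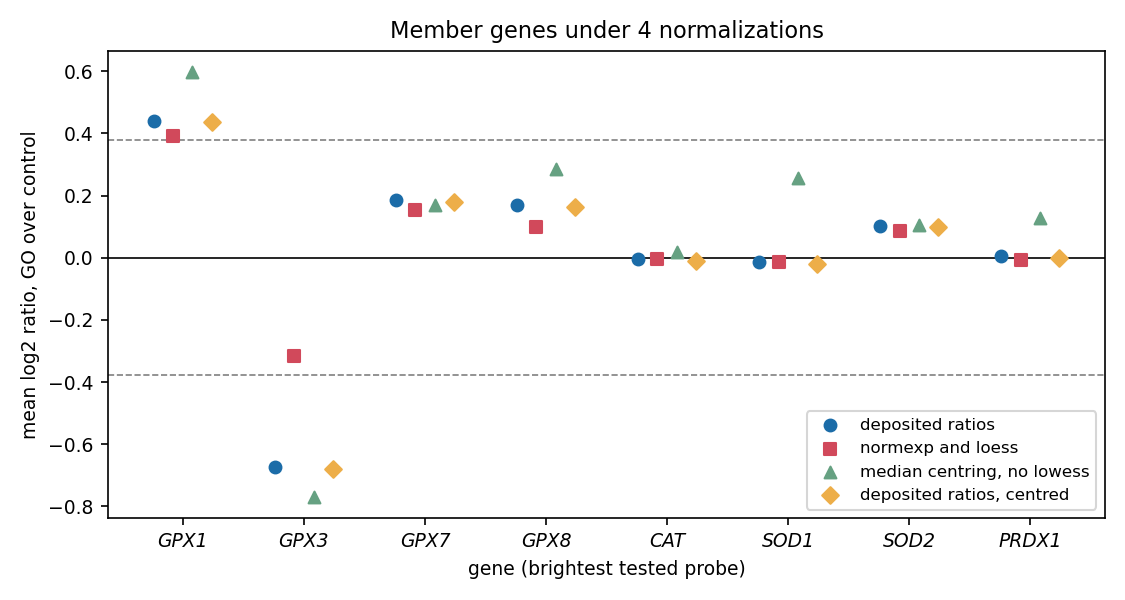
Mean log2 ratio over the 4 arrays (vertical axis) of the brightest tested probe of each gene under 4 normalizations, shown as 4 symbols, with dashed lines at the fold change of 1.3. *GPX1* stays above the upper line under all 4, *GPX3* lies inside the lower line only with normexp and loess (-0.32), and *SOD1* is near 0 except with median centring without lowess (0.26).

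The genes that work with these enzymes were taken from 8 lists written by function. Of 128 listed symbols, 103 were on the array and 78 genes were tested, of which 3 were higher, 4 lower and 71 not called. These shares are near those of all genes (3.29% higher and 5.37% lower), and the median of the 78 genes was 0.05, against 0.00 over all genes.

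Among the other peroxide-reducing enzymes no gene was called. All 5 other peroxiredoxins and glutathione peroxidases tested stayed within the thresholds (median -0.11), and the largest ratio in size was that of *PRDX2*, the peroxiredoxin best known from red blood cells, at -0.19 ± 0.11. *PRDX4* had no probe by symbol and is not counted here. A probe described as peroxiredoxin 4 read 0.0030 ± 0.06 (limma adjusted p = 0.976). None of the 9 genes of the thioredoxin and glutaredoxin system was called (median 0.04), with thioredoxin reductase 1 (*TXNRD1*), which re-reduces thioredoxin, at -0.14 ± 0.16. None of the 15 genes of peroxisome import and biogenesis, the organelle of catalase, was called either (median 0.06). The membrane ubiquitin ligase *PEX2* was the farthest from 0 there, at 0.26 ± 0.07.

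In the lists that supply the enzymes (10, 7 and 14 genes tested), 2 genes rose, against 3.29% called as higher among all genes. These lists were not tested as sets. None of the 10 genes of glutathione synthesis and recycling reported here was called (median 0.15), and the farthest from 0 was *OPLAH*, which returns oxoproline to glutamate in the glutathione cycle, at 0.36 ± 0.16. Of 7 genes of metal supply (median 0.13), the copper importer *SLC31A1* had control signals of at most 58.5 and GO signals of at least 73.6, which thus did not overlap, and a ratio of 0.52 ± 0.14 (limma adjusted p = 0.00738). All 3 of its probes were called. The lowest ratio of the metal supply list was that of *ATOX1*, at -0.35 ± 0.15 and below 0 on all 4 arrays. It passed the adjusted p (limma, 0.0249) but not the fold change threshold. Of 14 genes of selenocysteine insertion and selenoproteins (median 0.07), *SELM*, a selenoprotein of the endoplasmic reticulum, rose by 0.64 ± 0.23 (limma adjusted p = 0.00901), from control signals of 496, 974, 432 and 471 to GO signals of 893, 1346, 764 and 624. Its ratios were higher on arrays 1 and 3 than on arrays 2 and 4. With normexp and loess the ratio of *SLC31A1* was 0.20, no longer past the fold change threshold.

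Of 15 genes that form superoxide or hydrogen peroxide (median -0.02), 3 fell and none rose, against 5.37% lower and 3.29% higher among all genes. The list is small, and no test of it was made. Of the 3 that fell, *DUOX1* passed the filter on dim probes through the control channel alone, where its signal was higher. *DUOXA2*, the maturation factor of a dual oxidase, fell by 1.07 on the log2 scale, from control signals between 97.6 and 128 to GO signals between 42.2 and 65.7, without overlap (limma adjusted p = 0.00145). All 5 of its probes were called, but they start between chr1:141583027 and chr1:141583031. They thus read nearly the same stretch and are not separate evidence. The probe of the dual oxidase *DUOX2* was not well above background in either channel on any array and was not tested. *DUOX1*, a dual oxidase that releases hydrogen peroxide, had ratios of -0.12, -0.76, -1.05 and -1.43, a mean of -0.84 ± 0.55 (limma adjusted p = 0.0319) and its GO signal was above background on 3 of the 4 arrays. *LOXL1*, an amine oxidase that crosslinks elastin and releases hydrogen peroxide, had control signals between 26283 and 30789, GO signals between 17031 and 21021 that did not overlap with them, and a ratio of -0.53 ± 0.14 (limma adjusted p = 0.00663). With normexp and loess *DUOXA2* read -0.52 and *DUOX1* -0.41, both still called, and with median centring without lowess *LOXL1* read -0.26, below the fold change threshold. The *DUOX1* call was lost without array 2 (-0.87), 3 (-0.77) or 4 (-0.65). Of 3 heme peroxidases tested (median -0.29), *PTGS2*, the inducible prostaglandin synthase, rose by 0.42 ± 0.19 (limma adjusted p = 0.0211) at 1 of its 2 tested probes, the other reading 0.34 (limma adjusted p = 0.243), and lactoperoxidase (*LPO*) fell by 0.44 on the log2 scale (limma adjusted p = 0.0407). Both calls were lost with normexp and loess (0.28 and -0.17) and without array 2 or 4, that of *LPO* also without array 3, and that of *PTGS2* also with median centring without lowess (0.35). *LPO* was not well above background in both channels on all 4 arrays, so it was not tested under the stricter filter on dim probes.

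**Figure D5:**
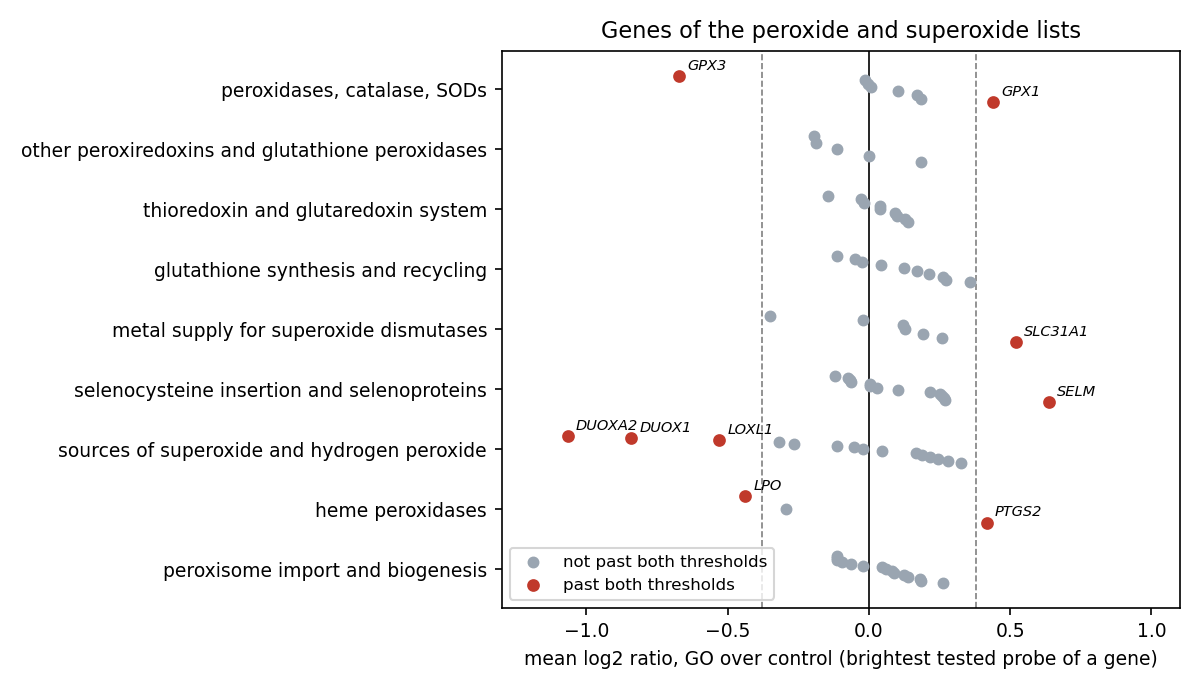
Mean log2 ratio of GO over control (horizontal axis) for the brightest tested probe of each gene, 1 row per list, with genes past both thresholds in red and named and dashed lines at the fold change of 1.3. Of the 8 genes in the top row, *GPX1* (0.44) and *GPX3* (-0.67) are red, as are 7 of the 78 genes of the lists under it.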

How the data were processed

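The arrays were 4 two-color horse arrays, which the authors scanned and processed with Feature Extraction (10.10.1.1 per the file headers). The deposited log10 ratios are those of processed Cy5 (GO) over processed Cy3 (control) signal after linear and lowess dye normalization by the authors. The deposited intensity values are raw mean and local background signals and the background-subtracted and processed signals of each channel, and further deposited columns hold flags. The authors' table of log10 ratios equalled those of the arrays in 180880 of 180880 values.

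Ratios were multiplied by log2 of 10, outlier spots were left out, and repeated spots of a probe were averaged. Of 43603 probes, 26832 passed the filter on dim probes, that is, were well above background on all 4 arrays in at least one channel. An intercept was fitted to the 4 ratios of a probe with limma 3.58.1 (R 4.3.3, data.table, version 1.17.8), two-sided against 0, with Benjamini-Hochberg adjustment over all probes tested. The ratio within an array pairs the channels. A fold change is the antilog of the mean log2 ratio. A gene is represented by its brightest probe. Symbols came from the files for 24949 probes and from RefSeq gene numbers or accessions for 1684 and 437, and 16533 probes stayed unnamed. The fit was tested on simulated data. Figures were drawn with matplotlib 3.10.9.

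Members, lists and markers were chosen with earlier results of these data known. Every member and every probe is named. Of each further list, the genes past both thresholds are named, or the gene with the largest ratio in size where none passed. *ATOX1*, *DUOX2* and *PRDX4* are named in addition. One gene of these lists is not reported here. Alternatives were normexp background correction (offset 50) with loess, median centring with and without lowess, no or a stricter filter on dim probes, a plain one-sample test, array weights, channels as separate samples, the mean over a gene's probes and leaving out each array. The number of arrays, 4, limits the precision.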

Additional observations from a re-analysis of the deposited data

How the results depend on the processing

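Median ratios over all probes moved by less than 0.1 on the log2 scale under every normalization tried. Each of these centres the ratios near 0, so this is no measure of how stable single genes were. *GPX7*, *GPX8* and *SOD2* kept their sign and stayed uncalled under all alternatives. *GPX1* and *GPX3* kept their sign throughout. Their calls were lost at unchanged ratios (0.44 and -0.67) without the filter on dim probes, with a plain one-sample test, and with no pairing of the channels by array (no replicate block), where limma adjusted p was 0.133 and 0.196. With normexp and loess *GPX3* read -0.32. Leaving out 1 array gave 0.39 to 0.49 for *GPX1* and -0.77 to -0.57 for *GPX3*.

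The 2 member genes (and 2 member probes) past both thresholds became 1 with normexp and loess, 0 without the filter, 0 with the plain test, 0 without the pairing, and 1 to 2 on leaving out 1 array (1 without array 2, 1 without array 3). The 7 called genes of the other lists became 2, 0 and 3 without the filter, with the plain test and without the pairing. Over all probes the 2399 calls became 1297 with normexp and loess, 908 without the filter, 147 with the plain test, 922 without the pairing and 1553 to 2433 on leaving out 1 array. The cause of these changes was not tested.

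Ratios near 0 changed sign. *CAT* read 0.018 with median centring without lowess, 0.016 with array weights and -0.090 to 0.076 on leaving out 1 array. *SOD1* read 0.26 with median centring without lowess and -0.044 to 0.014 on leaving out 1 array. *PRDX1* read -0.0083 with normexp and loess and -0.022 to 0.037 on leaving out 1 array. Signal close to background limits *GPX3*, *SLC31A1*, *DUOX1*, *DUOXA2* and *LPO*.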
